A study of Mus musculus with 2 samples.

Results

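Of the 8233 CpG-rich promoters of protein-coding genes on the mouse autosomes, 80 had no DNase I hypersensitive site (DHS) within 1 kb in either of 2 adrenal gland libraries, or 0.972% (95% Wilson interval 0.781 to 1.21%, which like all intervals here covers counting error only). A promoter was taken as CpG-rich when the 500 bp on each side of the gene's 5′ end in GENCODE M21 (mm10, GRCm38) held at least 55% GC and a CpG observed/expected ratio of at least 0.6. It was called closed when the longer deposited peak list of neither library placed a DHS within 1 kb of that end. Closure is thus how the promoters were chosen, and their lack of a DHS is not a result. For comparison, 48.6% of the autosomal protein-coding genes that are not CpG-rich by this rule had no such DHS, and 29.8% of all 20807. By replicate 2 alone 2.65% of CpG-rich promoters had none, and by replicate 1 alone 1.24%. The 7993 CpG-rich promoters with a DHS in both libraries serve as the open set, and 160 more had a DHS in 1 library only.

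The libraries were made by DNase-seq, in which DNase I cuts accessible DNA in nuclei and the sites cut most are read out as DHSs. The tissue was adrenal gland of male B6CASTF1/J mice, F1 hybrids of the B6 and CAST strains, aged 25 days. Replicate 1 and replicate 2 are numbered as separate animals but carry 1 donor code, and no other tissue, genotype or treatment was included. With a single group no test between groups could be made, and genes are not replicates of a condition, so values are given as counts, shares and medians for each library.

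CpG islands are stretches rich in GC and in unmethylated CpG, and most promoters that contain one are open in most tissues, whether or not the gene is active there. Those of developmental regulators are known to carry Polycomb complexes and the histone mark H3K27me3 where the gene is silent. Those of many germline genes are known to be silenced in body cells by DNA methylation and by a Polycomb complex that holds E2F6 and the MGA and MAX pair, which bind the sequences TCCCGC and CACGTG. None of these marks or factors was measured in the files used here.

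The promoters of 8 members are shown as the 250 bases before the 5′ end, on the strand of the gene, from the GRCm38 genome. The first 3 belong to germline genes and are shown because each holds the E-box CACGTG, which is in capitals. Fkbp6 lies at chr5:135350045-135350294 on the minus strand, Mov10l1 at chr15:88982659-88982908 on the plus strand and Slc25a31 at chr3:40708605-40708854 on the plus strand.
Fkbp6: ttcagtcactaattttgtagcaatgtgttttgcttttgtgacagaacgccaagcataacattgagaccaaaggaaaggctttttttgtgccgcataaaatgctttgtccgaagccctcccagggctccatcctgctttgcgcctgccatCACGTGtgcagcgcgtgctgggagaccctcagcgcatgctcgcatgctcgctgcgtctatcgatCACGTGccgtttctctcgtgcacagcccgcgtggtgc
Mov10l1: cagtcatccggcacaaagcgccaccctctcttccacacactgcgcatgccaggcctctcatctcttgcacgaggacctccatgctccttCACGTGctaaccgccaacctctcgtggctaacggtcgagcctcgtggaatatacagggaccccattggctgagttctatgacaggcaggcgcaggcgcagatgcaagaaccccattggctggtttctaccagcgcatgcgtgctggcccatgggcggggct
Slc25a31: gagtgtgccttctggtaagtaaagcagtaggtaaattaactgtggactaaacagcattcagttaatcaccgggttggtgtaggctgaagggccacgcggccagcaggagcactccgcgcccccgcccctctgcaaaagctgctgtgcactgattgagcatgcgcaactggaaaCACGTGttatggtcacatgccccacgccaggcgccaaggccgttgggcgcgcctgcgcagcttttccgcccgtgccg

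The next 3 belong to developmental transcription factors and are shown for their CpG content, with every CG in capitals. Cdx2 lies at chr5:147307271-147307520 on the minus strand, Hoxd13 at chr2:74668060-74668309 on the plus strand and T at chr17:8434173-8434422 on the plus strand. Hoxd13 has 31 CpGs in this window, T has 14 and Cdx2 has 11.
Cdx2: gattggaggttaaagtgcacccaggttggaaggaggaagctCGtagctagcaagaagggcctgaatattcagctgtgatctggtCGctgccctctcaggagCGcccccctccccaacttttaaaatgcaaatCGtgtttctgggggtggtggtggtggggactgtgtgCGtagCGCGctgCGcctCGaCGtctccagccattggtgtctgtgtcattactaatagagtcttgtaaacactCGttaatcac
Hoxd13: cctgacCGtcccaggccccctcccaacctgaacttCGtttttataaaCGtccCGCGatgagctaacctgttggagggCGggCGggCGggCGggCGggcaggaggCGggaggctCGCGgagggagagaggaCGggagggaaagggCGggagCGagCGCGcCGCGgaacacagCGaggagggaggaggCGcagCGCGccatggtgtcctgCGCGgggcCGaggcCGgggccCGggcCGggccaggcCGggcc
T: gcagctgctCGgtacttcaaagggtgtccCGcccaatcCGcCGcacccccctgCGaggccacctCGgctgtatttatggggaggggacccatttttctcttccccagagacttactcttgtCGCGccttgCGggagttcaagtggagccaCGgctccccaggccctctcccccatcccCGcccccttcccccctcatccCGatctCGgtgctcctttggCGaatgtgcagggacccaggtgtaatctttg

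The last pair shows what repeated sequence means at these promoters. The histone genes Hist1h2ao, at chr13:21810215-21810464 on the plus strand, and Hist1h2ap, at chr13:21833508-21833757 on the minus strand, share 1 run of 220 identical bases, which is in capitals.
Hist1h2ao: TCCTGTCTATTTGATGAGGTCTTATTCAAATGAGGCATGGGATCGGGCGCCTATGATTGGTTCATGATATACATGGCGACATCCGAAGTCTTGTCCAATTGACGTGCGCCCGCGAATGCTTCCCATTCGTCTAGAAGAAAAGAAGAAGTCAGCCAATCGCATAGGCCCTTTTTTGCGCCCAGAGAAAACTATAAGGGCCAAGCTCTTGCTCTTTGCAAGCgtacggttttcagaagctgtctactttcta
Hist1h2ap: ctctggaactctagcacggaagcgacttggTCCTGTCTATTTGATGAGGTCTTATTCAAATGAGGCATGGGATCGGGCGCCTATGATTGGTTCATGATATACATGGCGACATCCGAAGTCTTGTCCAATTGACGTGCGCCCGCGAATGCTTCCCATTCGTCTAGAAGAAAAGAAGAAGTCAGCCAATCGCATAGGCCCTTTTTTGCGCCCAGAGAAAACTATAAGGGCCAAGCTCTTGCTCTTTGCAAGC

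The tissue label was checked at genes of both adrenal compartments. At the strongest DHS within 1 kb of any coding start, deposited peak height was 9.01 in replicate 1 and 4.09 in replicate 2 for Nr5a1, the master regulator of the cortex, and 7.55 and 4.02 for Star, the cholesterol carrier. Of the medulla's genes, Chga, a granule protein, had heights of 5.67 and 2.48, and Th, the first enzyme of catecholamine synthesis, 1.37 and 1.13. The longer lists held 130945 DHSs in replicate 1 and 157786 in replicate 2, with median heights of 1.01 and 0.72. In bulk tissue, a site open in few cells and a site weakly open in many cells cannot be told apart. The sequence read here is that of the mm10 genome, and the CAST alleles were not analysed here.

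Closed CpG-rich promoters fell into 2 kinds by sequence. For 37 of them the 1 kb on each side of the 5′ end was repeated elsewhere in the genome. That is, at least 20% of its 31-base words occurred more than once on the main chromosomes of GRCm38. The other 43 were unique, all with under 10% of such words. Repeated sequence made up 46.2% of closed promoters (35.7 to 57.1%), against 1.73% of open promoters (138 of 7993). Read the other way, 37 of the 186 repeated CpG-rich promoters were closed (19.9%), and 43 of the 8047 unique ones (0.534%). Among the 85 CpG-rich promoters with at least 50% repeated words, 35 were closed (41.2%). Whether reads that match several places were kept is not given in the sources used here, and the part of repeated sequence in the absence of a DHS was not tested.

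**Figure D1:**
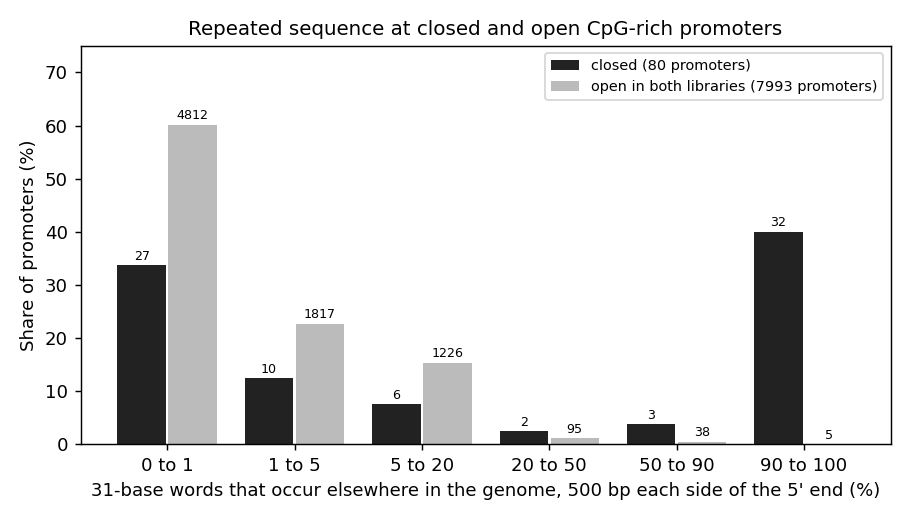
Share of promoters (%) by the percentage of 31-base words around the 5′ end that occur elsewhere in the genome, for the 80 closed promoters (black) and the 7993 open promoters (grey), with the number of promoters over each bar. The words were counted in the 1 kb on each side of the 5′ end, not in the 500 bp that the axis label gives. In the highest bin stand 32 closed and 5 open promoters, and in the lowest 27 closed and 4812 open.

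Among the repeated members, 27 had at least 99% repeated words, and 31 shared at least 50% of their words with the promoter of another protein-coding gene. For 29 of these 31, at least 1 such copy was closed too, and for 14 a copy had a DHS. Members that are copies of each other are each counted here, and copies of open promoters were not counted in this way. Several were pairs or triplets of copies on the same chromosome: Srp54b and Srp54c, which encode a subunit of the signal recognition particle, shared 98.2% of their words, and Entpd4 and Entpd4b, copies of a Golgi nucleotidase gene, shared 100%. Slc25a37, which encodes a mitochondrial iron importer, shared 100% with the predicted gene Gm16867. Plac9a and Plac9b shared 100% with each other, and Gm9780 shared 92.1% with its nearest match. Chromosome 14 held 15 of the 80 closed promoters, of which 14 were repeated, and 304 of the 8233 CpG-rich promoters.

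The 5 closed histone genes, of 29 CpG-rich replication-dependent histone promoters (17.2%, 7.6 to 34.5%), were all of repeated sequence, and 0 of the 3 unique histone promoters were closed. With a DHS window of 2 kb, 0 of the 29 were closed. Hist1h2bq and Hist1h2ao are a divergent pair, and Hist1h2br and Hist1h2ap are its copy. The first pair's promoters were 1524 bp (Hist1h2bq) and 1256 bp (Hist1h2ao) from a DHS of height 1.38 at the start of Hist1h4m in replicate 1. The copy's promoters were 1510 bp (Hist1h2br) and 1274 bp (Hist1h2ap) from a DHS of height 0.633 at the start of Hist1h4n. In replicate 2 the DHS at Hist1h4m was there, with a height of 1.39, and that at Hist1h4n was not listed. Hist2h3c1, with 80.7% repeated words, shared 79.7% of them with Hist2h3c2, which had a DHS.

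Predicted genes made up most of the remainder: 20 of the 37 repeated members carried a Gm number, a Rik name or a clone name. In the class of predicted genes, 19 of 322 CpG-rich promoters were closed (5.9%, 3.81 to 9.03%), against 0.972% of all, and 286 were open in both libraries. The largest family lay on chromosome 4, where Gm13276, Gm13278, Gm13279, Gm13287 and Gm13289 were closed, while the copies Gm13277 and Gm13288 had a DHS in both libraries and Ifnz, an interferon gene, in replicate 1. Each of these 5 shared at least 50% of its words with 11 other genes, of which 4 were closed members. On chromosome 14, Gm3500 and Gm3373 shared 100% of their words and were both closed, while their copy Gm8108 had a DHS in replicate 2. The other repeated members were Fam177a and its copy 1700047I17Rik2, Loxl2, Tmem181a, Oxct2b, Prr23a1, BC107364, Gm3020, Gm10409, Gm3488, Gm3252, Gm3417, Gm3435, Gm9817, Gm21953 and Gm21586.

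The 43 unique members were grouped by known role after their values were seen. Of them, 20 were developmental transcription factors or corepressors, 12 were germline and testis genes, 6 were genes known for their activity in brain, and 5 fitted none of these. These counts have no base to be set against. The shares that follow instead rest on lists of gene families, each with its count of CpG-rich promoters as the base. These lists too were chosen with earlier results of these data known, so their shares and intervals are descriptions.

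Transcription factors of development had a higher share of closed promoters than CpG-rich promoters as a whole. Over the 7 factor lists, 18 of 199 were closed, or 9.05% (5.8 to 13.8%), against 0.972% of all CpG-rich promoters. Among homeobox factors outside the Hox clusters it was 11 of 89 (12.4%, 7.04 to 20.8%), among Hox genes 3 of 20 (15%, 5.24 to 36.0%) and among T-box factors 2 of 8 (25.0%, 7.15 to 59.1%). Forkhead factors had 1 of 28 (Foxl1) and Sox factors 1 of 14 (Sox14). None of 18 tissue bHLH factors was closed, which allows a share of up to 17.6%, and none of 22 Gata, Zic, Gli and Sall factors, up to 14.9%. The intervals of these lists overlap, so no order among them is drawn.

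The closed Hox genes were Hoxc9, Hoxc11 and Hoxd13, all of posterior identity. Of the other homeobox factors, Cdx1 and Cdx2 pattern the gut and the posterior body, Pitx1 the hindlimb, and Pax9 the pharyngeal pouches and teeth. Otx2, Six3, Gsx2 and Lhx5 are factors of the anterior brain, Pou4f3 of hair cells in the inner ear, Irx4 of the heart ventricle and Tlx1 of the spleen. T, or brachyury, is the factor of early mesoderm and notochord, and Tbx1 acts in the pharyngeal arches. Skor1 and Skor2, corepressors known from neurons, are in no list and were added to this group after their values were seen.

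Most factors of these lists were open all the same. Both libraries had a DHS at 148 of the 199, or 74.4%, but these DHSs were low: the median height at open developmental promoters was 3.08 in replicate 1 and 1.84 in replicate 2, against 12.4 and 8.82 over all open CpG-rich promoters. Another 30 had a DHS in replicate 1 only, among them Pax2, Pax3, Pax7, Nkx2-2 and Foxd3, and 3 in replicate 2 only, namely Barx1, Hoxa11 and Hoxc12. Over all 8233 CpG-rich promoters, 138 had a DHS in replicate 1 only and 22 in replicate 2 only. Of the 89 homeobox factors outside the Hox clusters, 12 had no DHS by replicate 1 alone (13.5%, 7.88 to 22.1%), against 1.24% of all CpG-rich promoters. By replicate 2 alone it was 31 of the 89 (34.8%, 25.7 to 45.2%), against 2.65%. Where 1 library alone had a DHS it was low, with median heights of 0.883 (replicate 1) and 0.569 (replicate 2).

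Germline genes had a higher share of closed promoters than CpG-rich promoters as a whole. Of 32 in the list of germline and meiosis genes, 7 were closed, or 21.9% (11 to 38.8%), against 0.972% of all. By replicate 1 alone 8 had no DHS (25.0%, 13.3 to 42.1%), and by replicate 2 alone 11 (34.4%, 20.4 to 51.7%). These intervals overlap those of the histone, Hox and other homeobox lists, so no order is drawn here either. Ddx4 is the germ-cell RNA helicase known as vasa, Mov10l1 and Fkbp6 act in the piRNA pathway, Sycp2 and Tex12 build the synaptonemal complex, Hsf5 acts in spermatocytes, and Slc25a31 is the ADP/ATP carrier of sperm. Another 5 testis genes outside that list were closed, and were placed with them after their values were seen: Papolb, Prss50, Ptchd3, Tcfl5 and Zfp541. Other germline promoters had a DHS. Dazl, another germ-cell RNA-binding protein, was open with heights of 12.9 in replicate 1 and 9.09 in replicate 2, and Sycp3, a synaptonemal complex gene, had low DHSs of 0.717 and 0.666. Tdrd5, of the piRNA pathway, had a DHS in replicate 1 only, of height 1.07, and Mael in replicate 2 only, of height 0.355.

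Genes of nerve cells were closed at 3 of 189 CpG-rich promoters, or 1.59% (0.541 to 4.56%), an interval that includes the 0.972% of all. This rests on requiring both libraries: replicate 1 alone gave the same 3, but by replicate 2 alone 22 of the 189 had no DHS, or 11.6% (7.81 to 17.0%), against 2.65% of all. Among them were Galr1, a galanin receptor, and Slc32a1, the vesicular transporter of GABA. Mpped1, Ptprt and Tmem132d, in no list, were grouped with them after their values were seen. Among ligands of the Wnt, Fgf and Bmp families and their inhibitors, Sfrp5, a secreted Wnt inhibitor, was the 1 closed of 42. Of collagens and matrix proteases, Col27a1 was the 1 of 28, though its only coding start, away from the 5′ end, had a DHS in both libraries. Ap1m2, an adaptor subunit of epithelial cells, Hmcn2, an extracellular matrix protein, and Plk5, a polo-like kinase family member, were unique members in no list.

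Lists of broadly active genes held no closed promoter. Of 166 CpG-rich promoters of ribosomal, respiratory, proteasome and splicing genes 0 were closed, which allows a share of up to 2.26%. The same was true of 12 adrenal steroid genes, 15 chromaffin cell genes and 25 Polycomb and DNA methylation genes, where the intervals reach 24.2%, 20.4% and 13.3%. Genes in no list were closed at 24 of 6856 promoters, or 0.35% (0.235 to 0.52%), and 12 of those 24 were of repeated sequence.

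**Figure D2:**
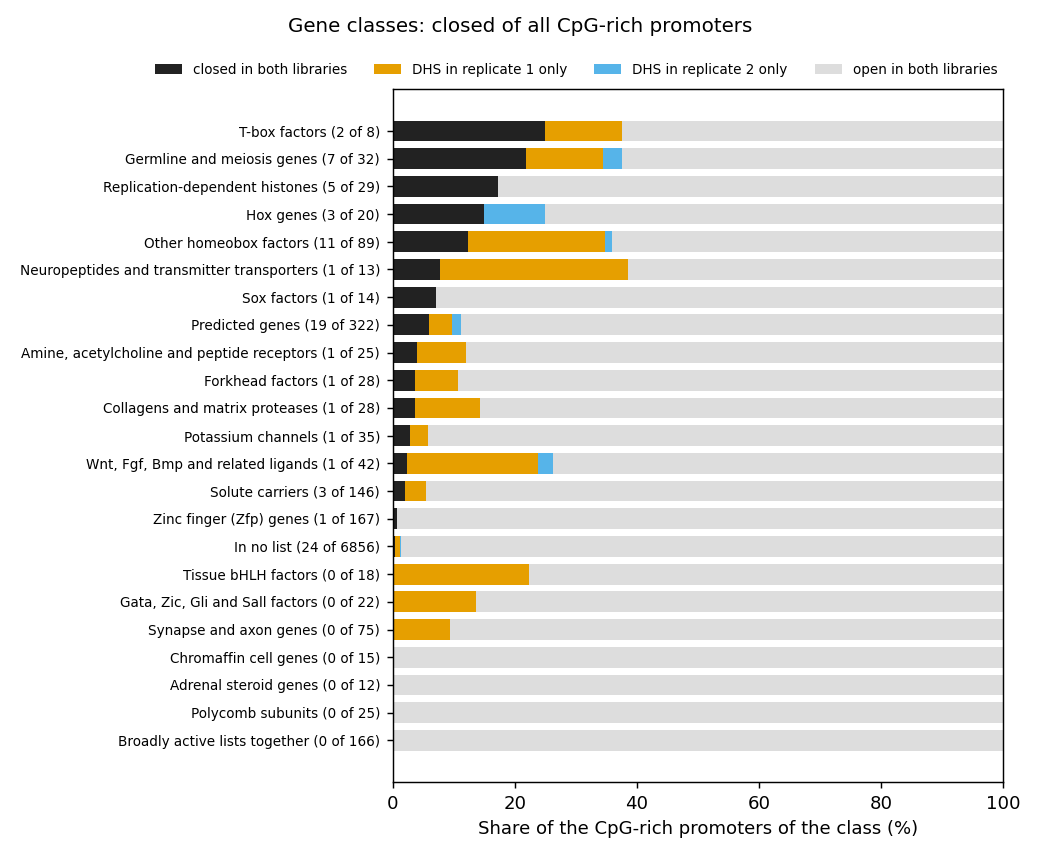
Share (%) of the CpG-rich promoters of each gene class that were closed in both libraries (black), had a DHS in replicate 1 only (orange) or in replicate 2 only (blue), or were open in both (grey), with closed and total counts in the labels. T-box, germline, histone, Hox and other homeobox genes have the longest black bars, and the broadly active lists have none.

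Unique closed promoters lay toward the low end of the CpG ratios that the rule admits. The median CpG observed/expected was 0.723 over the 43 unique members (quartiles 0.635 and 0.772), against 0.8 over open promoters, and median GC was 60.9%, against 62.5%. By steps of the ratio, the share of unique CpG-rich promoters that were closed was 1.26% from 0.6 to 0.7, 0.622% from 0.7 to 0.8, 0.221% from 0.8 to 0.9, and 0.117% at 0.9 or above. The counts behind these shares are 21 of 1670, 15 of 2410, 5 of 2259 and 2 of 1708. By GC content there was no such steady order: the share was 0.837% from 55 to 60% GC, 0.321% from 60 to 65%, 0.445% from 65 to 70% and 0.532% at 70% or above, with overlapping intervals between the lowest and the highest step. The 2 unique members at or above 0.9 were Tcfl5 (0.906), a germline bHLH factor, and Hoxd13 (0.905). The CpG-rich stretch over the 5′ end, made of 200 bp windows with at least 50% GC and the same ratio, had a median length of 690 bp in unique members, against 860 bp at open promoters. The 20 closed developmental members had a median ratio of 0.672 and a median stretch of 610 bp, against 0.798 and 915 bp at open promoters of the developmental lists. The 20 include Skor1 and Skor2, which are in no list, so the 2 sides were not chosen alike.

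Genes on either side of each limit of the rule are given as a description. Just inside the GC limit were Hoxc11 (55.5%), Ap1m2 (55.5%) and Plac9a (55.7%), and just outside it Zfp433 and Gm10837 (54.6% each) and Sfi1 (54.3%). The lowest CpG ratios inside were 0.602 for Mov10l1, Plac9a and Plac9b, and values just outside it with no DHS included 0.598 for Gm13290 and 0.594 for Gm3002. For DHS distance, Ap1m2 at 1064 bp, Tbx1 at 1070 bp and Hist2h3c1 at 1105 bp were just inside, and Prr23a3 at 987 bp, 2610042L04Rik at 958 bp and Grhl2 at 948 bp just outside.

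**Figure D3:**
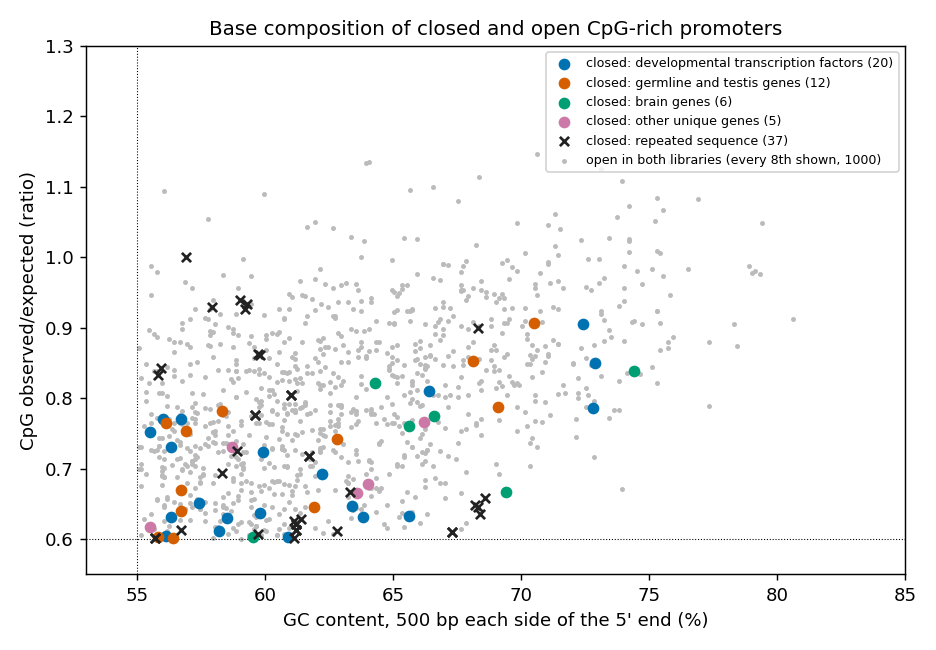
CpG observed/expected ratio against GC content (%) in the 500 bp on each side of the 5′ end, for the closed promoters by group (coloured dots, and black crosses for repeated sequence) and every 8th open promoter (grey dots), with dotted lines at the rule's limits. Unique closed promoters are dense between ratios of 0.6 and 0.8, and 2 of them reach 0.9.

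Short consensus sequences were counted on both strands from 250 bp before to 50 bp after the 5′ end. The GC box GGGCGG, bound by Sp1 and KLF factors, occurred in 60.5% of unique closed promoters (26 of 43, 45.6 to 73.6%), 76.2% of open ones and 43.0% of all coding promoters. The ETS sequence CCGGAAG was in 6.98% of unique closed promoters (2.4 to 18.6%), 18.4% of open and 10.8% of all coding promoters. That interval includes both of the other shares, so no difference was detectable for CCGGAAG with this number of promoters. None of the 20 closed developmental promoters held CCGGAAG, which was not counted at open developmental promoters. The cyclic AMP response element TGACGTCA was in 0 of 43, against 3.82% of open promoters, and the YY1 sequence AAGATGGC in 0 of 43, against 4.48%. For both, 0 of 43 allows up to 8.2%, so that neither difference was detectable with this number of promoters. TATAAA was found in 14.0% of unique closed promoters (6.56 to 27.3%), 4.78% of open and 12.6% of all coding promoters, in the factors Cdx1, Gsx2, Hoxd13 and Pou4f3 and the germline genes Ddx4 and Sycp2.

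Of the sequences that E2F6 and the MGA and MAX pair are known to bind, CACGTG had a higher share at the germline members than at open promoters, while the interval for TCCCGC includes the share at open promoters. CACGTG was present at 5 of the 12 (41.7%, 19.3 to 68.0%), in Fkbp6, Mov10l1, Slc25a31, Ptchd3 and Tex12, against 11.3% of open and 7.75% of all coding promoters. Fkbp6 holds 2 copies in the 250 bases printed above. The E2F sequence TTCCCGC, which contains TCCCGC, was at 5 of the 12 as well (19.3 to 68.0%), against 10.5% of open and 5.72% of all coding promoters. TCCCGC itself was at 7 of the 12 (58.3%, 32.0 to 80.7%), against 51.2% of all 43 unique closed, 45.2% of open and 24% of all coding promoters. At least 1 of CACGTG and TCCCGC was at 10 of the 12 (83.3%, 55.2 to 95.3%), against 62.8% of all unique closed and 51.4% of open promoters. The NRF1 sequence GCATGCGC was in 3 of the 12, namely Fkbp6, Mov10l1 and Slc25a31 (8.89 to 53.2%), against 6.12% of open and 3.71% of all coding promoters. These are matches of letters in a group of 12 genes assembled after values were seen, and 20 sequences were searched.

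DHSs around the unique closed promoters had medians of distance and number close to those around open promoters. From the 5′ end to the nearest DHS the median was 4650 bp in replicate 1 and 5980 bp in replicate 2, against 4950 and 4910 bp at open promoters when DHSs within 1 kb are left aside. A DHS lay 1 to 10 kb away at 34 of 43 in replicate 1 (79.1%) and 32 of 43 in replicate 2 (74.4%), against 71.4% and 73.0% of open promoters. Within 100 kb the median number of DHSs was 19 in replicate 1 and 18 in replicate 2, against 18 in each library at open promoters. Repeated members stood apart: their nearest DHS was at a median of 34900 bp in replicate 1 and 37300 bp in replicate 2, the median number of DHSs within 100 kb was 5 in each library, and 10 of 37 had none. The sequence around them was not searched for repeats beyond the promoter window, so the part of repeats in this was not tested.

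The nearest DHS of a unique member was the same site in both libraries, by overlap of at least 1 bp, for 20 of 43. In replicate 1 it lay between genes for 20 members, inside the gene for 12, inside another gene for 4, at the start of another gene for 3 and at another start of the same gene for 4. In replicate 2 these counts were 18, 12, 5, 6 and 2. Neither overlap nor place was counted at open promoters. The nearest DHS of unique members had a median height of 1.27 in replicate 1 and 1.05 in replicate 2, against 1.1 and 0.95 for the nearest DHS beyond 1 kb at open promoters.

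By group, germline and testis genes were the farthest from a DHS. Their median distance was 9220 bp in replicate 1 and 10800 bp in replicate 2, while developmental factors had 4640 and 4310 bp and brain genes 3390 and 4750 bp. The quartiles of germline genes (6760 and 13300 bp in replicate 1) overlapped those of developmental factors (2230 and 7890 bp). The medians of closed developmental factors, with Skor1 and Skor2 of no list among them, were above those of open promoters of the developmental lists. At these open promoters the median distance to the nearest DHS beyond 1 kb was 1790 bp in replicate 1 and 2460 bp in replicate 2. Within 100 kb, germline members had a median of 19.5 and 19 DHSs, about the number at open promoters.

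Mov10l1 had its nearest DHS 16344 bp away in replicate 1 (height 0.592) and 27729 bp away in replicate 2 (height 0.586), at different sites. Slc25a31 had its nearest at 10286 bp (0.5) in replicate 1 and 19566 bp (0.489) in replicate 2. Ddx4 differed in kind: its nearest DHS, 8086 bp away with a height of 9.22 in replicate 1 and 8106 bp away with 8.41 in replicate 2, was that at the start of its neighbour Slc38a9. Hsf5 and Tcfl5 had the same nearest DHS in both libraries, at 12797 bp (1.56 and 0.835) and 14793 bp (2.9 and 1.5). Zfp541 had strong DHSs upstream, with heights of 14.0 in replicate 1 and 11.9 in replicate 2 at a position of -8.92 kb relative to the 5′ end, and 40 DHSs within 100 kb in replicate 1 and 30 in replicate 2.

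Among developmental factors, Hoxd13 had its nearest DHS at 4470 bp upstream in both libraries, with heights of 2.1 and 1.11. Hoxc9 had 1 inside the gene at 5301 bp in replicate 1 (1.24) and 5461 bp in replicate 2 (1.13), and Hoxc11 none within 10 kb in either library. A stronger DHS of the cluster stood nearby, of height 15.4 in replicate 1 and 6.62 in replicate 2 at 11.2 kb after the 5′ end of Hoxc9. Foxl1 had its nearest at 2160 bp upstream in both libraries, with heights of 3.3 and 1.93, and a DHS of 27.5 and 17.6 at 19.5 kb upstream. Pou4f3 had 1 site 1682 bp downstream in both, of height 5.12 and 2.24. Cdx2 had sites at 7870 and 7857 bp, of height 1.79 and 0.853.

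Other members of the group were less alike between the libraries. T had its nearest DHS at 10860 bp in replicate 1 (0.492) and 2618 bp in replicate 2 (0.533). Pitx1 had it at 4647 bp in replicate 1 (0.708) and 61249 bp in replicate 2 (0.542), and Irx4 at 3202 bp (0.417) and 29123 bp (0.569). Sox14 was far from any DHS in both, at 29070 and 27600 bp, with 2 DHSs within 100 kb in replicate 1 and 5 in replicate 2. In T, Pitx1 and Irx4 the nearest sites had heights below the median of all DHSs of the library concerned.

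**Figure D4:**
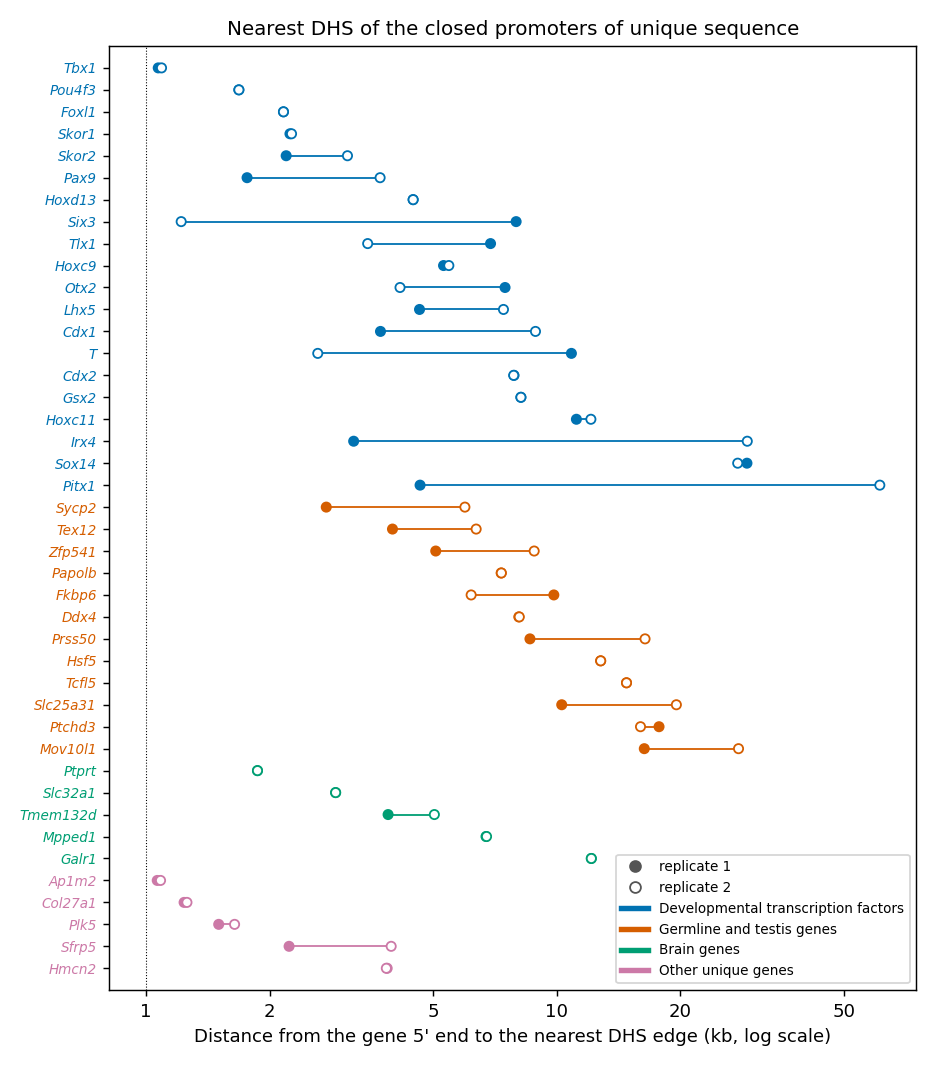
Distance (kb, log axis) from the 5′ end to the edge of the nearest DHS for 42 of the 43 unique closed promoters, in replicate 1 (filled) and replicate 2 (open), with a line joining the libraries and the 1 kb limit dotted. Circles that lie together show similar distances, not always the same site: the nearest DHSs of Hoxc11 lie on opposite sides of its 5′ end. Pitx1 and Irx4 show the longest lines.

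At 8 of the 80 members (10%, 5.15 to 18.5%) a coding start other than the 5′ end had a DHS within 1 kb. Closure at the outermost 5′ end thus did not hold for the gene as a whole. Members whose only coding start is the 5′ end could not have this. A coding start more than 2 kb from the 5′ end was present in 21 of the 80 (26.2%). Such a distance is not required, as the starts concerned lay 1431 bp away in Col27a1 and 1863 bp away in Tbx1. The share with a DHS at such a start was not counted at open promoters. Col27a1 had 1 of height 8.71 in replicate 1 and 2.85 in replicate 2 near a start 1431 bp from the 5′ end. That is the only coding start of Col27a1, whose 5′ end is not one. Pax9 had 1 of 2.99 and 1.63 near a start 3872 bp away. Tmem181a had 0.683 and 0.657 near a start 13610 bp away. In the rest, 1 library alone had it: Otx2 (1.02), Pitx1 (0.758), Zfp541 (0.592) and Six3 (0.525) in replicate 1, and Tbx1 (0.879) in replicate 2.

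A stretch of low false discovery rate was listed within 1 kb of 6 of the 80 members in at least 1 library (7.5%, 3.48 to 15.4%). The share at open promoters is not given here, so this number is not called low or high. The stretches come from the same readout as the rule, so their number is a description. For Ap1m2 and Tbx1, with a DHS edge 1064 and 1070 bp away in replicate 1, whether the stretch belongs to that DHS was not tested. The deposited lists of false discovery rates held a stretch at 0.05 or less within 1 kb of 5 members in replicate 1, namely Tbx1, Pou4f3, Galr1, Ap1m2 and Skor1, with 8 to 55 bp each, and of 1 in replicate 2, Ptprt, with 47 bp. No member had a footprint within 1 kb. Footprints come from the same readout as the rule too, so this is given as a description.

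Of genes that have neither role, Ap1m2 was the member nearest to a DHS. A site of height 13.3 in replicate 1 and 5.01 in replicate 2 lay 1064 and 1084 bp upstream of its annotated 5′ end. Plk5 had the most DHSs of all members, 56 within 100 kb in each library, the nearest 1502 bp away in replicate 1 and 1642 bp in replicate 2. Of the brain genes, Ptprt had its nearest DHS 1867 bp inside the gene in both libraries, of height 5.66 and 1.1, and Slc32a1 at 2894 bp, of height 1.06 and 0.959.

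**Figure D5:**
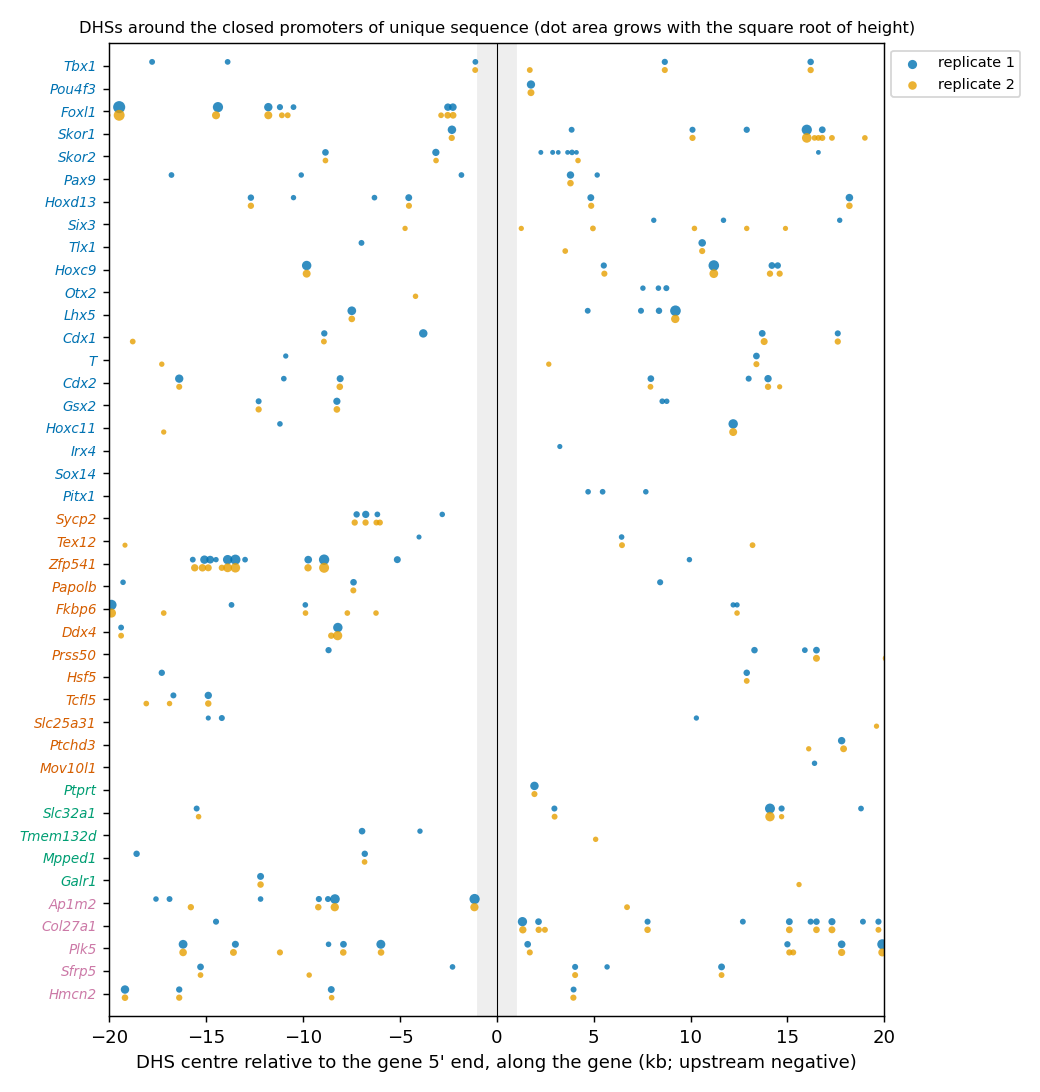
DHS centres within 20 kb of the 5′ end of 42 of the 43 unique closed promoters, in kb along the direction of the gene, for replicate 1 (blue, upper) and replicate 2 (orange, lower), with larger dots for greater height and the empty 1 kb on each side shaded. Ap1m2, Tbx1 and Col27a1 have sites close to the shaded band, and Sox14 has none in the range.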

How the data were processed

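DNase-seq of adrenal gland was analysed in 2 libraries of 1 group. Per the file descriptions and values, peak height is a deposited signal value. All heights of a library are whole multiples, within 0.1 of a step, of 0.00833 in replicate 1 and 0.00888 in replicate 2. How the authors scaled them is not stated in the sources used here. The authors also deposited false discovery rates (q-values) along the genome, listed up to 0.05, and footprints at 0.01. Peaks were called for each library alone in mm10, per the labels. Which aligner, mapping filter and callers were used is not stated in the sources used here, and read depth was not analysed.

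Gene starts came from GENCODE M21 and bases from GRCm38, with numpy 2.4.6, pandas 2.3.3 and numba 0.67.0. The distance, base composition and 31-base word counts were tested on simulated data. Shares carry 95% Wilson intervals from scipy 1.17.1. The members, gene lists and sequences were chosen with earlier results of these data known, and role groups and members outside the naming rule after values were seen. That rule took the first closed genes of each list, those with the highest CpG ratio, most DHSs, nearest and farthest DHS and strongest DHS at another start, and genes beside each limit. The class of predicted genes holds 19 of the 20 such symbols, as 1700047I17Rik2 is outside its pattern. Values of 1 unique member and of 1 gene beside a limit are not reported here.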

Additional observations from a re-analysis of the deposited data

How the results depend on the processing

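No paired analysis was possible because both libraries belong to 1 group and no test was made. From each library alone, 102 to 218 CpG-rich promoters had no DHS (1.24 to 2.65%), with 6350 to 7620 bp as the median distance to the nearest DHS and 20.6 to 39.2% of repeated sequence, against 80 promoters (0.972%), 8120 bp (mean of both libraries) and 46.2% from both. The stricter calls of the shorter peak lists left 205 closed (2.49%), at 11600 bp with 23.9% repeated, and the 50000 strongest DHSs of each library left 468 (5.68%), at 22300 bp with 40.8% within 10 kb of a DHS and 14.7% repeated. These settings use a subset of the DHSs, so that all 80 members stay closed by construction. A CpG ratio of at least 0.75 left 32 (0.599%). Base composition taken over 1 kb on each side left 31 (0.71%), of which 27 were members, at 4100 bp, with 3.23% having a DHS at another start, 80.6% a DHS within 10 kb and 16.1% repeated sequence. Leaving out repeated promoters left 43 (0.534%), at 5310 bp, with 81.4% within 10 kb and 0.0% repeated by construction, and leaving out genes with a Gm number or a symbol ending in Rik, which keeps BC107364 and 1700047I17Rik2, left 62 (0.781%), at 7240 bp with 30.6% repeated. The median distance was 7120 bp with a DHS window of 500 bp and 11600 bp with 2 kb, where all 5 histone genes dropped out. Asking for no DHS at any coding start gave 9290 bp and, by construction, 0.0% with a DHS at another start. Of single gene classes and sequences, 540 of 598 values stayed within the interval of the value reported and 58 did not. Repeated sequence was set against these results, and repeat thresholds added, after seeing the data: at 50% of words the repeated share was 43.8%. Read depth was not analysed, and intervals follow from the number of promoters in each class.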
